A study of Mus musculus with 7 samples.

Results

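The genes of the WNT pathway were described in ovaries of adult mice. They are 48 genes named by symbol in the GENCODE M21 annotation of the mm10 assembly, out of 55487 gene identifiers in the count files. All 48 were among the 18779 genes that had enough counts to be tested. Their roles run from ligand secretion to the transcription factors at the end of the pathway. Porcn was taken in because the study lists it as lower in these same libraries. Its direction and its p values here are therefore not independent evidence.

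WNT proteins are secreted ligands that must be lipid-modified before they can leave the cell and bind a frizzled receptor. In the canonical branch, ligand binding to a frizzled and an LRP coreceptor stops the destruction of beta-catenin, which then enters the nucleus and acts with TCF/LEF factors. R-spondins raise the number of receptors at the cell surface, secreted inhibitors hold ligand or coreceptor away, and target genes such as Axin2 and Notum feed back on the pathway. In the ovary, WNT4 and RSPO1 are known for directing female gonad development, and the pathway acts in granulosa, luteal and surface epithelial cells of the adult organ.

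Whole ovaries of C57BL/6J females, taken at diestrus on postnatal day 60, were sequenced as 1 library per mouse. The 3 CNTR mice were offspring of dams injected with PBS on embryonic days E16.5 to E18.5. The 4 PAMH F3 mice were generation 3 descendants of dams injected over the same days with anti-Müllerian hormone (AMH) at 0.12 mg/kg per day, a mouse model of polycystic ovary syndrome. The study's methods place the CNTR mice in the first generation, so exposure and generation cannot be told apart, and they give the injections as intraperitoneal where the sample labels say subcutaneous.

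Counts on genes ran from 32158174 to 35485021 per library. Levels are given as TMM CPM, edgeR's counts relative to library size after TMM scaling, and levels of different genes are compared only after division by exon length in kilobases. CNTR 2 stood apart by base composition, with levels that rose by 0.25 log2 units per 10% of GC content against -0.10 to 0.04 in the other 6 libraries. Of the cell type markers, only Insl3, a theca hormone, stayed under 1 CPM in all libraries, and it shares 64.9% of its exon length with Jak3. Among the marker lists, the summed level did not overlap between the groups for stroma only, at 1520 to 1572 CPM in CNTR and 1158 to 1490 CPM in PAMH F3. Each of the 5 stroma markers overlapped between the groups when taken singly. Dcn, with a mean of 804 CPM in CNTR, made up the largest part of their sum. The oviduct marker sum ran from 3148 to 5495 CPM in CNTR and from 2737 to 6636 CPM in PAMH F3. The part of these markers in the results on WNT genes was not tested.

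Sfrp4, Ctnnb1 and Dkk3 were the most abundant WNT pathway genes per kilobase of exon, whereas Wnt2, Wif1, Lef1, Dkk2 and Wnt7a lay under 1 CPM per kb. Over all 7 libraries, Sfrp4 averaged 317.7 CPM per kb and Ctnnb1 177.7, while the median of the 48 genes was 6.66 CPM per kb. Wnt4 led the ligands at 29.6 ± 7.77 CPM per kb (SD, n = 7), followed by Wnt2b at 13.2 ± 4.83. Fzd6 and Lrp6 led the receptors at 14.5 and 11.7 CPM per kb, and the ranges of these neighbours overlapped. In 46 of the 48 genes every library held at least 10 counts, the exceptions being Wnt2 and Wif1.

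**Figure D1:**
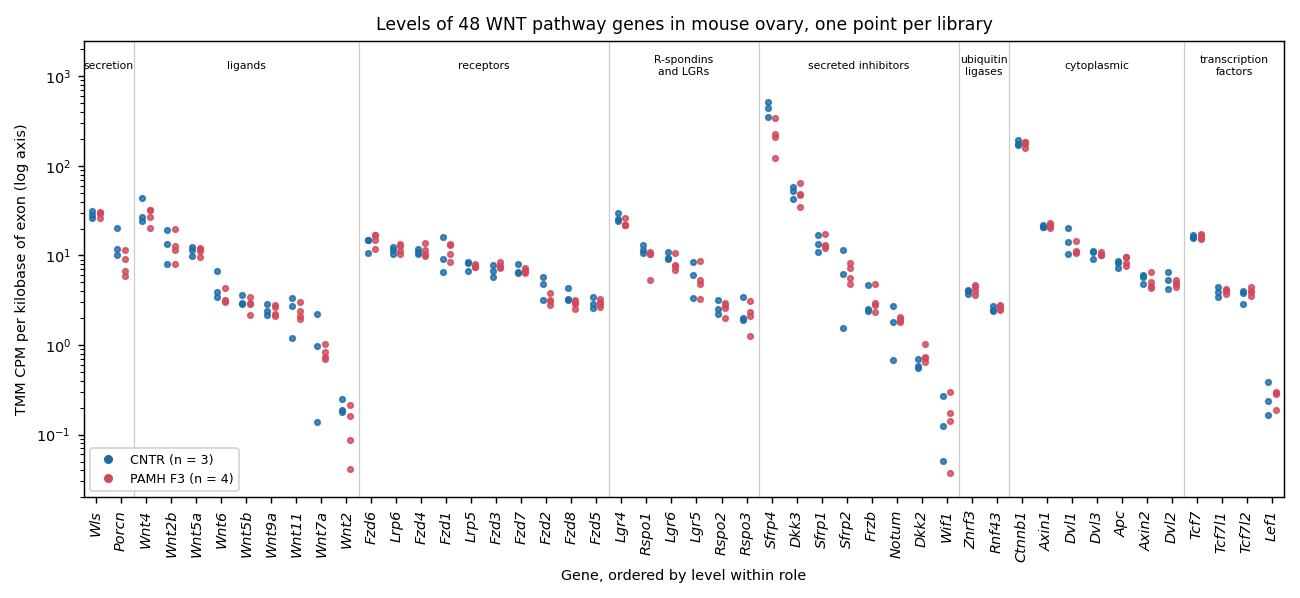
Level of each of the 48 genes in TMM CPM per kilobase of exon on a log axis, with genes ordered by level within their role and 1 point per library (blue, 3 CNTR; red, 4 PAMH F3). Sfrp4 and Ctnnb1 stand above the rest at means of 317.7 and 177.7 CPM per kb, and the points of the groups overlap for every gene but Sfrp4.

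The comparison of PAMH F3 with CNTR addresses whether the WNT pathway differed in ovaries of mice descended from AMH-exposed ancestors. No WNT pathway gene passed the threshold in edgeR's quasi-likelihood test with 2 surrogate variables (covariates that stand for unwanted variation), and neither did any other gene: 0% of the 18779 genes had an adjusted p of at most 0.05. The smallest adjusted p among the 48 genes was 0.369, for Porcn. At an unadjusted edgeR p under 0.05, 3 of the 48 genes were higher in PAMH F3 (Fzd3, Fzd6 and Tcf7l2), where 3.89% of all genes tested were, and 4 were lower (Porcn, Fzd2, Lgr4 and Sfrp4), where 3.74% of all genes were. In the fit without surrogate variables 3 remained, all lower (Porcn, Fzd2 and Sfrp4), beside 2.72% of all genes lower and 1.17% higher. DESeq2, run with the same covariates, called 0.58% of the 17413 genes with an adjusted p, and 1 of the 48 WNT genes, Porcn. Sfrp4 was the single gene whose 4 PAMH F3 libraries all lay below the 3 CNTR libraries, as 2.4% of all genes did, and no WNT gene had all PAMH F3 libraries above CNTR, as 1.85% of all genes did.

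The fitted differences of most WNT genes were small. Of the 48, 23 had a log2 fold change (PAMH F3 minus CNTR) above 0 and 25 below, with a median of -0.01 beside 0.01 over all genes tested. The difference was within 0.2 of 0 in 32 genes, and the median standard error was 0.12. Only Porcn, Sfrp4 and Wnt2 differed by at least 0.5 in the fit, and Wnt2 rested on a few counts. In all 18 alternative analyses, 16 genes kept the sign of their fit, including the 7 with an unadjusted p under 0.05, and Wnt2 kept it in the 17 in which it was fitted.

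**Figure D2:**
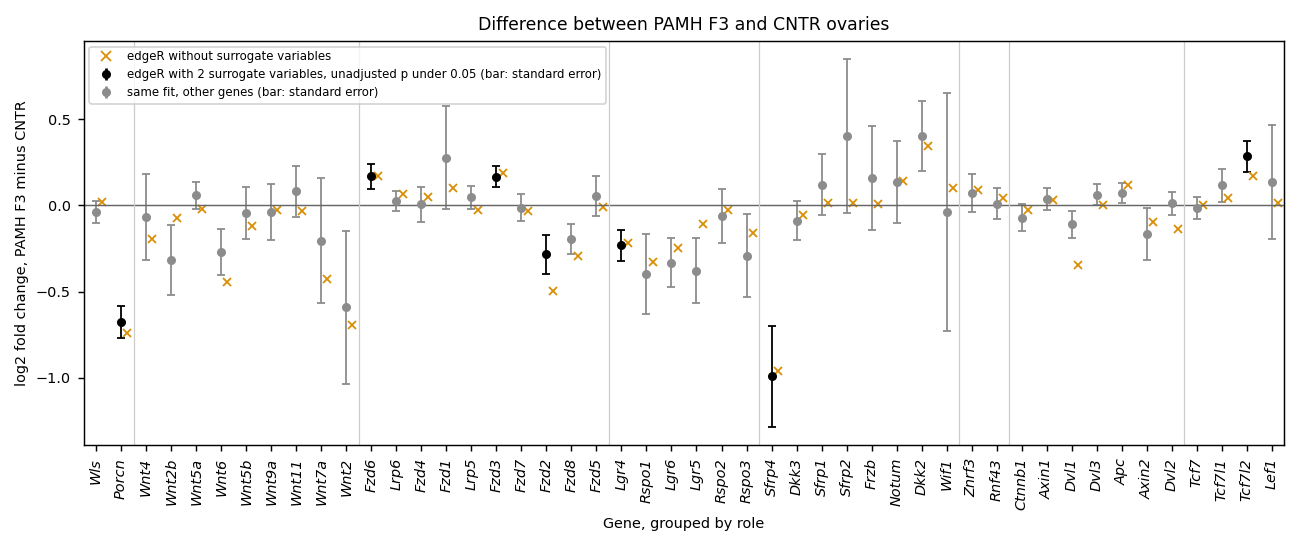
Log2 fold change (PAMH F3 minus CNTR) of each of the 48 genes, grouped by role, from edgeR with 2 surrogate variables (circles, with the standard error as a bar; black where the unadjusted p is under 0.05) and without surrogate variables (crosses). Porcn at -0.68 and Sfrp4 at -0.99 lie lowest among the black circles, and most other genes lie within 0.2 of 0.

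Ligand secretion is represented by Porcn and Wls. Porcn encodes porcupine, the enzyme of the endoplasmic reticulum that attaches the lipid to WNT ligands, and lies on the X chromosome (chrX:8193848-8206525, minus strand, mm10). Porcn was at 30.0, 35.2 and 60.4 CPM in the CNTR libraries and at 27.7, 20.4, 17.7 and 34.5 CPM in the PAMH F3 libraries. Porcn averaged 41.9 ± 16.3 CPM in CNTR (n = 3) and 25.1 ± 7.57 CPM in PAMH F3 (n = 4, both mean ± SD). CNTR 3 was far above the other libraries, and the groups overlapped, since PAMH F3 4 exceeded CNTR 1. In whole ovaries, fewer cells of a type that expresses the gene and less RNA per cell cannot be told apart. The fitted log2 fold change was -0.68 (SE 0.09), with an adjusted p of 0.369 in edgeR. Without surrogate variables it was -0.74 with a larger standard error of 0.28, and the adjusted p in edgeR was 0.994. DESeq2 with the same surrogate variables gave the same size of -0.68 with an adjusted p of 2.38e-05. The study's own test on these libraries was DESeq2 with sva covariates, so this p is not independent evidence. Without surrogate variables DESeq2 called 0 of the 48 WNT genes. The exact two-sided permutation test on the 7 levels, which allows no p below 0.0286, gave p = 0.114. Leaving out each library in turn gave log2 fold changes of Porcn from -0.96 to -0.59 in edgeR. The lowest was without CNTR 1, the CNTR library lowest in Porcn, with an adjusted p of 0.0353. In that fit 3256 of all 19094 genes had an unadjusted p under 0.05, more than in the main fit.

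Wls encodes the carrier that takes lipid-modified WNT to the cell surface. It was at 276, 232 and 250 CPM in CNTR and at 270, 265, 228 and 261 CPM in PAMH F3. The libraries of both groups covered the same range, and the log2 fold change was -0.04 (SE 0.06).

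**Figure D3:**
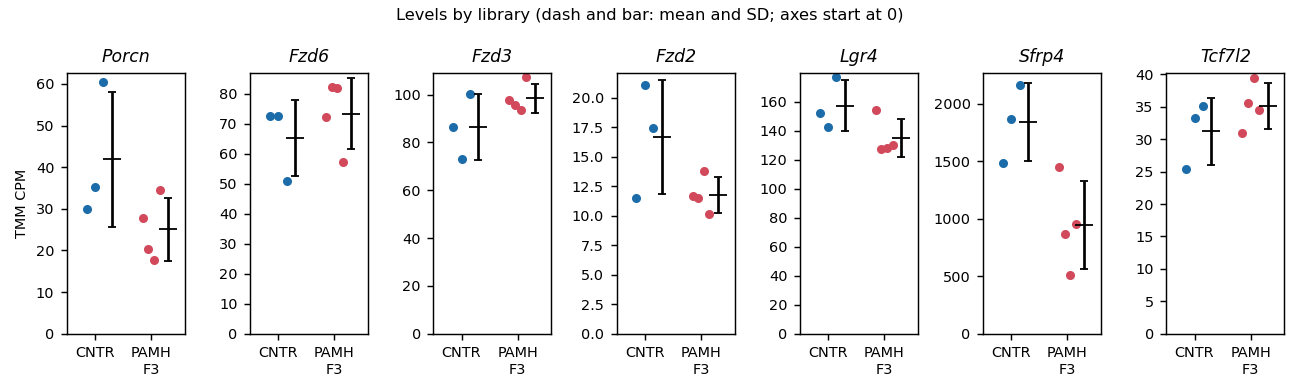
TMM CPM of the 7 genes with an unadjusted edgeR p under 0.05, 1 point per library with the group mean (dash) and SD (bar), on axes that start at 0 and differ between genes. Sfrp4 is the one gene in which all 4 PAMH F3 points, 511 to 1446 CPM, lie below the 3 CNTR points, 1483 to 2163 CPM.

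Of the 9 ligands, none had an unadjusted edgeR p under 0.05, and their median log2 fold change was -0.07 (-0.12 without surrogate variables). Wnt4, the ligand needed for female gonad development, was at 113, 186 and 102 CPM in CNTR and at 136, 134, 84.5 and 112 CPM in PAMH F3. The highest and the second lowest of its values were both from CNTR. Wnt2b, a canonical ligand, was at 81.8, 33.8 and 56.1 CPM in CNTR and at 83.0, 53.4, 33.5 and 47.9 CPM in PAMH F3. Both groups covered nearly the same range, and the log2 fold change of -0.31 (SE 0.20) turned to 0.30 without CNTR 1. Wnt5a, the main noncanonical ligand, kept within 76.7 to 97.6 CPM in CNTR and 74.5 to 95.1 CPM in PAMH F3. Summed over the 9 ligands, the level was 320 ± 43.8 CPM in CNTR (n = 3) and 294 ± 39.6 CPM in PAMH F3 (n = 4, both mean ± SD).

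The remaining ligands were low. Wnt6 had a mean of 10.3 ± 3.79 CPM in CNTR (n = 3) and 7.51 ± 1.34 CPM in PAMH F3 (n = 4, both mean ± SD), and its log2 fold change of -0.27 (SE 0.13) had an unadjusted edgeR p of 0.0808. Wnt7a, a ligand of Müllerian duct epithelium, was at 7.11, 3.06 and 0.433 CPM in CNTR and at 2.24, 2.68, 3.29 and 2.32 CPM in PAMH F3. The CNTR mice thus differed more among themselves in Wnt7a than the PAMH F3 mice did, with a coefficient of variation of 95.2% against 18.2%. Ovgp1, picked from 6 oviduct markers, was also lowest in CNTR 3 among the CNTR libraries and highest in CNTR 1. The other oviduct markers were lowest in CNTR 3 too. Krt7 and Ccdc153 were highest in CNTR 1, but Foxj1, Pax8 and Tekt1 were highest in CNTR 2. In PAMH F3, Ovgp1 ran from 2394 to 6172 CPM, a wide range beside that of Wnt7a. The part of oviduct tissue in Wnt7a was not tested. Wnt2 had a mean of 0.465 CPM in CNTR and 0.284 CPM in PAMH F3, and its log2 fold change of -0.59 had a standard error of 0.45. Wnt5b, Wnt9a and Wnt11 had log2 fold changes between -0.04 and 0.08 and overlapping groups.

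Among the 10 receptors and coreceptors, 2 were higher and 1 was lower at an unadjusted edgeR p under 0.05, with a median log2 fold change of 0.04 (0.02 without surrogate variables). Fzd2 encodes a frizzled receptor that transmits canonical and noncanonical signals (chr11:102604396-102608058). It was at 11.5, 21.1 and 17.4 CPM in CNTR and at 11.7, 11.5, 13.8 and 10.1 CPM in PAMH F3. CNTR 2 and CNTR 3 exceeded all PAMH F3 libraries, while CNTR 1 lay among them. The log2 fold change was -0.28 (SE 0.11), with an adjusted p of 0.641 in edgeR, and grew to -0.69 without CNTR 1.

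Fzd3 and Fzd6, receptors of the planar cell polarity branch, were the 2 receptors higher in PAMH F3 at an unadjusted edgeR p under 0.05. Fzd3 was at 86.3, 72.9 and 100 CPM in CNTR and at 97.7, 95.7, 93.4 and 107 CPM in PAMH F3. For Fzd3 the log2 fold change was 0.17 (SE 0.06), with an adjusted p of 0.628 in edgeR. Fzd6 was at 72.5, 72.6 and 50.8 CPM in CNTR and at 72.4, 82.3, 81.9 and 57.3 CPM in PAMH F3. The log2 fold change of Fzd6 was 0.17 (SE 0.07). In both genes the groups overlapped, and without surrogate variables the unadjusted edgeR p was 0.114 for Fzd3 and 0.321 for Fzd6. The coreceptors Lrp5 and Lrp6 differed by log2 fold changes of 0.05 (SE 0.07) and 0.03 (SE 0.06). Fzd8 had a log2 fold change of -0.19 (SE 0.09), Fzd1 one of 0.28 (SE 0.30), and Fzd4, Fzd5 and Fzd7 lay between -0.01 and 0.05.

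All 6 genes of the R-spondins and their LGR receptors had fits below 0, as 8973 of the 18779 genes tested did. Those of Lgr5, Rspo2 and Rspo3 turned above 0 without CNTR 1. The median log2 fold change of the 6 was -0.31 (-0.19 without surrogate variables), and only Lgr4 had an unadjusted edgeR p under 0.05. Lgr4 encodes an R-spondin receptor (chr2:109917647-110014257). It was at 152, 143 and 177 CPM in CNTR and at 154, 128, 128 and 130 CPM in PAMH F3. Of the PAMH F3 libraries, PAMH F3 1 lay within the CNTR range and the other 3 lay below it. The log2 fold change was -0.23 (SE 0.09), with an adjusted p of 0.628 in edgeR.

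Lgr6, a related R-spondin receptor, was at 74.0, 64.0 and 63.1 CPM in CNTR and at 73.3, 53.0, 46.9 and 52.4 CPM in PAMH F3. As in Lgr4, 3 of the 4 PAMH F3 libraries lay below all CNTR libraries. The Lgr6 difference was -0.33 on the log2 scale (SE 0.14), with an unadjusted edgeR p of 0.0503. Rspo1, the R-spondin of ovary determination, was at 25.5, 20.5 and 22.0 CPM in CNTR and at 21.2, 20.1, 20.4 and 10.3 CPM in PAMH F3. PAMH F3 4 was far below the rest, and the log2 fold change of -0.40 (SE 0.23) became -0.20 without it. Lgr5, a receptor and target gene found in ovarian surface epithelium, was at 87.4, 34.5 and 62.3 CPM in CNTR and at 89.2, 49.4, 33.9 and 55.0 CPM in PAMH F3. Its spread within each group was larger than the difference between them, and its log2 fold change of -0.38 (SE 0.19) turned to 0.25 without CNTR 1. Rspo3 turned in the same way, from -0.29 (SE 0.24) to 0.17. Rspo2 had a log2 fold change of -0.06 (SE 0.16), which became 0.12 without CNTR 1 and 0.0095 without PAMH F3 1.

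Sfrp4 dominated the secreted inhibitors. It encodes a secreted frizzled-related protein that binds WNT ligands outside the cell, and lies at chr13:19623104-19632994 on the plus strand. Sfrp4 was at 1483, 1869 and 2163 CPM in CNTR and at 1446, 868, 511 and 951 CPM in PAMH F3. The groups did not overlap, though PAMH F3 1 lay just below CNTR 1 and close to it. Sfrp4 averaged 1839 ± 341 CPM in CNTR (n = 3) and 944 ± 385 CPM in PAMH F3 (n = 4, both mean ± SD), a ratio of 0.514. The fitted log2 fold change was -0.99 (SE 0.29), with an adjusted p of 0.550 in edgeR and of 0.564 in DESeq2. The exact two-sided permutation test on the levels gave p = 0.0571. Leaving out each library in turn gave log2 fold changes from -1.19 to -0.71.

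Sfrp4 made up between 63.1% and 90.6% of the summed level of the 8 inhibitors. The other 7 inhibitors together were at 271, 290 and 224 CPM in CNTR and at 271, 256, 299 and 201 CPM in PAMH F3, and their libraries overlapped. Dkk3, a divergent member of the Dickkopf family, was the next most abundant at 49.7 CPM per kb, with a log2 fold change of -0.09 (SE 0.12). Sfrp1, a relative of Sfrp4, had means of 60.1 ± 13.2 CPM in CNTR (n = 3) and 60.6 ± 10.5 CPM in PAMH F3 (n = 4, both mean ± SD). Sfrp2 varied widely between the CNTR mice, at 13.3, 24.7 and 3.34 CPM, and lay between 10.3 and 17.6 CPM in PAMH F3. Dkk2, which blocks the LRP coreceptors, was low in every library, with a log2 fold change of 0.40 (SE 0.20) and an unadjusted edgeR p of 0.0857. Frzb, the frizzled-related protein first found in cartilage, had a log2 fold change of 0.16 (SE 0.30). Wif1, which binds WNT ligands, was under 1 CPM in every library.

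Sfrp4 was highest in the same 4 libraries as 1 of the 5 luteal markers, Ptgfr, which was picked after the values were seen. Ptgfr encodes the prostaglandin F receptor of the corpus luteum and was at 577, 516 and 883 CPM in CNTR and at 593, 302, 227 and 309 CPM in PAMH F3. The 4 highest libraries were CNTR 1, CNTR 2, CNTR 3 and PAMH F3 1 for both genes, and PAMH F3 3 was the lowest. Ptgfr had a log2 fold change of -0.95 (SE 0.28), with an adjusted p of 0.550 in edgeR. The other luteal markers had other orders: Lhcgr and Prlr were higher in PAMH F3 4 than in CNTR 2, and in PAMH F3 3 Hsd17b7, at 234 CPM, exceeded CNTR 2 and CNTR 3 and Akr1c18, at 557 CPM, exceeded CNTR 1 and CNTR 2. All 5 luteal markers had fits below 0, and 2 of them, Ptgfr and Prlr, had an unadjusted edgeR p under 0.05, where 3.74% of all genes were lower. Fits below 0 were also found in 8973 of the 18779 genes tested and in all 3 endothelium and 4 adipocyte markers. The 2 theca markers tested, Cyp17a1 and Cyp11a1, had them as well. The summed level of the 5 luteal markers ran from 1945 to 3289 CPM in CNTR and from 1248 to 2283 CPM in PAMH F3. None of the 5 was under 1 CPM in all libraries. In ovary sections of mice older than those sequenced, the study counted fewer corpora lutea in PAMH F3 than in controls. The part of luteal tissue in the difference of Sfrp4 was not tested.

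Wnt2b and Lgr5 varied together across the libraries, which was also noticed after the values were seen. The ratio of Lgr5 to Wnt2b in CPM stayed between 0.926 and 1.15 in the 7 libraries, while Wnt2b ran from 33.5 to 83.0 CPM. Upk1b, a marker of the ovarian surface epithelium, was at 79.9, 35.9 and 67.1 CPM in CNTR and at 73.2, 59.6, 49.7 and 55.7 CPM in PAMH F3. Lhx9, another such marker, was at 49.6, 21.6 and 40.4 CPM in CNTR and at 56.8, 38.1, 30.0 and 41.1 CPM in PAMH F3. CNTR 1 and PAMH F3 1 were the highest libraries for these 4 genes, and CNTR 2 and PAMH F3 3 were the lowest. Upk1b and Lhx9 were picked from 6 surface epithelium markers, of which Upk3b and Msln shared the highest libraries but had PAMH F3 4 among their lowest. Krt19 and Krt18 went the other way, highest in PAMH F3 3 at 248 and 270 CPM and next in CNTR 2. The summed level of the 6 surface epithelium markers ran from 635 to 816 CPM in CNTR and from 510 to 780 CPM in PAMH F3, and its part in these genes was not tested.

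**Figure D4:**
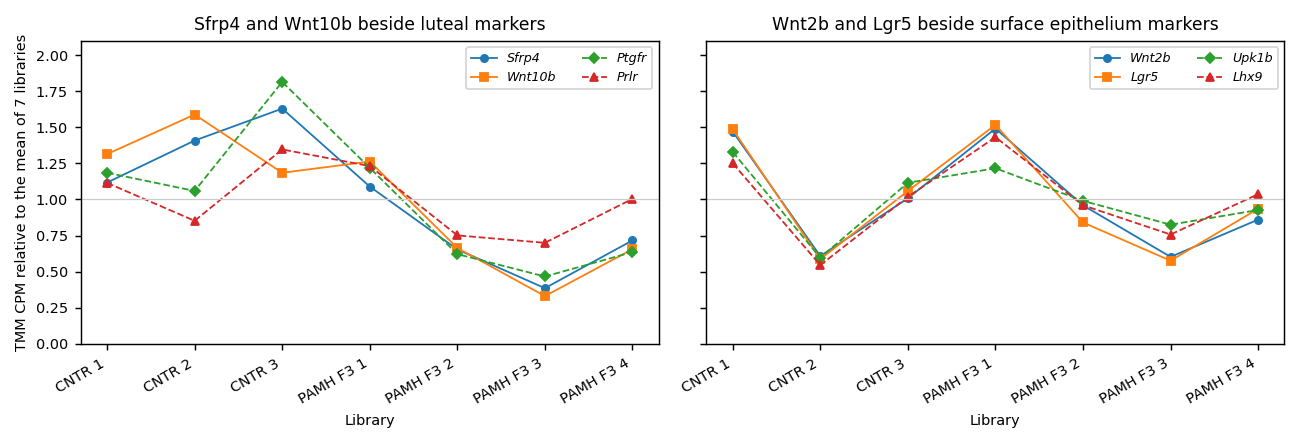
TMM CPM of each gene divided by its mean over the 7 libraries, by library; left, Sfrp4 and Wnt10b (solid) with the luteal markers Ptgfr and Prlr (dashed), right, Wnt2b and Lgr5 (solid) with the surface epithelium markers Upk1b and Lhx9 (dashed). Sfrp4, Wnt10b and Ptgfr lie above 1 in the 3 CNTR libraries and PAMH F3 1 and below 1 in the other 3, whereas Wnt2b and Lgr5 are high in CNTR 1 and PAMH F3 1 and low in CNTR 2 and PAMH F3 3.

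The membrane ubiquitin ligases Rnf43 and Znrf3, which remove frizzled receptors from the cell surface, varied little, with coefficients of variation from 5.93% to 10.7% within the groups. Rnf43 was at 18.0, 16.2 and 15.9 CPM in CNTR and at 17.9, 16.0, 18.2 and 16.6 CPM in PAMH F3. Znrf3 was at 31.5, 32.9 and 29.2 CPM in CNTR and at 36.6, 28.9, 31.4 and 35.4 CPM in PAMH F3. Both genes overlapped between the groups, and the log2 fold changes were 0.01 (SE 0.09) and 0.07 (SE 0.11).

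None of the 7 cytoplasmic genes had an unadjusted edgeR p under 0.05, and their median log2 fold change was 0.01 (-0.03 without surrogate variables). Ctnnb1, which encodes beta-catenin, was at 1002, 914 and 884 CPM in CNTR and at 973, 911, 819 and 956 CPM in PAMH F3, and differed by -0.07 on the log2 scale (SE 0.08). Axin1, the scaffold of the destruction complex, was at 79.9, 84.6 and 78.6 CPM in CNTR and at 84.3, 78.0, 80.8 and 87.9 CPM in PAMH F3. Both genes were steady within each group, with coefficients of variation from 3.91% to 7.54%. Apc, another part of the destruction complex, had a log2 fold change of 0.07 (SE 0.06). Of the dishevelled genes, which relay the signal from the receptor, Dvl1 was at 52.6, 102 and 69.8 CPM in CNTR and at 53.8, 55.4, 72.4 and 54.1 CPM in PAMH F3. CNTR 2 was far above the others in Dvl1, and the log2 fold change was -0.11 (SE 0.08), compared with -0.34 without surrogate variables. Dvl2 and Dvl3 had log2 fold changes of 0.01 (SE 0.07) and 0.06 (SE 0.06). Ctnnb1 shares 14.6% of its exon length with Ulk4 on the opposite strand and Dvl2 shares 18.3% with Acadvl, and the strand setting of the counting is not given in the sources used here.

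Of the 4 TCF/LEF factors, Tcf7l2 was higher at an unadjusted edgeR p under 0.05. It encodes TCF4, a partner of beta-catenin in metabolic tissues among others, at chr19:55741820-55933654. Tcf7l2 was at 25.4, 33.2 and 35.1 CPM in CNTR and at 30.9, 35.5, 39.5 and 34.5 CPM in PAMH F3. The groups overlapped, with CNTR 1 the lowest library. The log2 fold change was 0.28 (SE 0.09), with an adjusted p of 0.564 in edgeR, and became 0.05 without CNTR 1. Tcf7, the most abundant of the family at 16.3 CPM per kb, had means of 42.9 ± 1.90 CPM in CNTR (n = 3) and 42.8 ± 2.84 CPM in PAMH F3 (n = 4, both mean ± SD). Tcf7l1, mainly a repressor, averaged 4.00 CPM per kb and had a log2 fold change of 0.12 (SE 0.10). Lef1 was at 0.265 CPM per kb.

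Of the 7 direct targets of canonical signaling (Axin2, Lgr5, Notum, Rnf43, Znrf3, Lef1 and Tcf7), none had an unadjusted edgeR p under 0.05. Of their fits, 4 were above 0 and 3 below, with a median log2 fold change of 0.01. Axin2, the most widely used readout of the pathway, was at 33.5, 31.4 and 26.3 CPM in CNTR and at 35.9, 25.4, 24.2 and 28.1 CPM in PAMH F3. The highest and the lowest Axin2 values were both from PAMH F3, and the log2 fold change was -0.17 (SE 0.15). Notum, an enzyme that takes the lipid off WNT ligands, was at 6.60, 4.35 and 1.64 CPM in CNTR and at 4.70, 4.91, 4.49 and 4.39 CPM in PAMH F3. The PAMH F3 libraries lay within the wider CNTR range. The summed level of the 7 targets ran from 164 to 221 CPM in CNTR and from 154 to 233 CPM in PAMH F3.

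The promoters of 3 genes are shown because Axin2 is the readout of canonical signaling, Lgr4 is the R-spondin receptor with the lowest p, and Wnt11 carries the TCF/LEF core motif CTTTGA. Each sequence is the 250 bases before the transcription start in RefSeq (build GRCm38.p6), read 5′ to 3′ on the plus strand, on which the 3 genes lie. Capitals mark the motif, searched on both strands and present here as its reverse complement.
Axin2, chr11:108920099-108920348: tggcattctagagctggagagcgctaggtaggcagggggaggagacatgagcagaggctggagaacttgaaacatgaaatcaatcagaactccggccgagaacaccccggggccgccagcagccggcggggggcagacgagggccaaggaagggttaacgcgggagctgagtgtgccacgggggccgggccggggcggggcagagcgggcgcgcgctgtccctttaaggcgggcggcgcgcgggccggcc
Lgr4, chr2:109917397-109917646: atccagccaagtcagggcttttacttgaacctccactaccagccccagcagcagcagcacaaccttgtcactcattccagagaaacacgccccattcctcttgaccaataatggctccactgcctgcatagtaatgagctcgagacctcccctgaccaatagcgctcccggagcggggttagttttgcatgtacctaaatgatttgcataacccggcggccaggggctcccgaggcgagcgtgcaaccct
Wnt11, chr7:98834862-98835111: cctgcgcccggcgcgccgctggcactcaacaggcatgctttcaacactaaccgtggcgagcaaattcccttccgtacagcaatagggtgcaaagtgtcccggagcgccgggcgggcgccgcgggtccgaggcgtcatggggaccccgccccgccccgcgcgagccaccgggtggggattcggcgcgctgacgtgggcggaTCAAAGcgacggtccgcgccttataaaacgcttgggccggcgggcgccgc

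The Axin2 and Lgr4 windows hold no match to these 6 letters. RefSeq windows were found for 30 of the 48 genes, in 40 windows, of which 5 (12.5%) hold the motif, beside 13.8% of all 32851 promoter windows. By gene, 16.7% of the 30 held it in a window, beside 15.8% of all genes with a window. The share among the WNT genes was therefore close to that of all promoters. Of the genes shown, Wnt11 had a log2 fold change of 0.08 (SE 0.15), Axin2 one of -0.17 (SE 0.15) and Lgr4 one of -0.23 (SE 0.09).

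Beyond these 48 genes, a further list of 58 WNT pathway genes was examined, of which 47 were tested. None had an adjusted edgeR p of at most 0.05. At an unadjusted edgeR p under 0.05, 6 were higher (Vangl1, Prickle2, Bcl9, Tle1, Ccnd1 and Gpc4) and 2 were lower (Wnt10b and Gpc3), beside 3.89% and 3.74% of all genes tested. Without surrogate variables none of the 47 was higher at that p, and 1 was lower. Wnt10b, a canonical ligand, was at 152, 184 and 137 CPM in CNTR and at 147, 77.0, 38.4 and 76.0 CPM in PAMH F3. Its 4 highest libraries were those of Sfrp4, and its log2 fold change was -1.01 (SE 0.43), with an adjusted p of 0.654 in edgeR. Gpc3, a glypican that binds WNT at the cell surface, had a log2 fold change of -0.32 (SE 0.06), with an adjusted p of 0.369 in edgeR and of 0.0257 in DESeq2. It became -0.21 without surrogate variables and 0.01 when CNTR 1 was left out. Its values were 80.3, 50.8 and 56.9 CPM in CNTR and 58.5, 54.5, 50.4 and 52.9 CPM in PAMH F3, and CNTR 1 alone stood well above the rest. Vangl1 and Prickle2, genes of planar cell polarity, had log2 fold changes of 0.19 (SE 0.06) and 0.26 (SE 0.09), while their paralogs Vangl2 and Prickle1 had 0.08 and -0.02. Csnk1a1, a kinase of the destruction complex, was the single gene of this list whose groups did not overlap, where 1.85% of all genes were higher in that way. Its groups overlapped under median-ratio scaling, and its log2 fold change was 0.04 (SE 0.06).

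The coefficient of variation between mice was larger in CNTR than in PAMH F3 in 33 of the 48 genes, although its medians were alike at 16.2% and 15.8%. It exceeded 30% in 15 genes in CNTR and in 8 genes in PAMH F3. These counts were not made over all genes tested, so they are not read as particular to the WNT genes. Of the 48 genes, 17 were highest in CNTR 2, the library with the steep slope on GC content, and their median exon GC content was 55.7% against 50.3% in the others. Fzd2, Fzd8, Wnt4, Wnt6 and Dvl1 were among these 17. How many of all genes tested were highest in CNTR 2 was not counted, so the 17 are not read as particular to WNT genes. Without surrogate variables, 3 of the 48 were at an unadjusted p under 0.05 both with and without a correction for GC content and length. Of all genes, 826 of 18773 were with the correction and 730 of 18779 without it.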

How the data were processed

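Ovarian RNA of 3 CNTR and 4 PAMH F3 mice was sequenced by the authors from stranded poly(A) libraries, base-called with bcl2fastq 2.17.1.14, mapped to mm10 with STAR 2.5.3a and counted on Ensembl genes with HTSeq 0.6.1p1 in union mode from uniquely aligned reads. The Ensembl release and the strand setting are not given in the sources used here. The authors deposited raw counts per gene, without normalization. HTSeq's summary lines were left out of library sizes and tests.

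All 18779 genes kept by filterByExpr (minimum count 10) entered the quasi-likelihood F test of edgeR 4.0.16 (R 4.3.3) on TMM-normalized counts. The model held the group and 2 surrogate variables from svaseq in sva 3.50.0 (number from num.sv with 20 permutations and seed 1, at most 3), which left 3 residual degrees of freedom. P values were adjusted over all genes tested after Benjamini and Hochberg, and 0.05 was the threshold. DESeq2 1.42.0 was the alternative tool, of which the study had used an earlier version with sva. Single genes were also compared by an exact permutation test over the 35 divisions of the libraries, on log2(CPM + 0.25). The tests were first tested on simulated data.

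Values are printed for Porcn, for genes whose groups did not overlap, for genes with an unadjusted p under 0.05, and for the highest genes of each role. The others are given by range, and a few more were picked once their values were known. The gene lists were chosen with earlier results of these data known. Positions come from GENCODE M21, in which 13 of the 48 genes share exon bases with another gene. Promoter sequences come from RefSeq. Levels rest on exon length over all annotated transcripts. Alternatives changed the surrogate variables, tool, normalization, filter, robust fitting, replicate block, GC and length correction, and libraries.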

Additional observations from a re-analysis of the deposited data

Results flagged for a closer look

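In 6 of the 48 WNT pathway genes, 1 of the 4 PAMH F3 libraries lay farther from the other 3 than Dixon's limit for 4 samples allows. With independent, normally distributed values such a gap comes up in about 1 in 20 groups, and here 12.5% of the groups had one. Genes measured in the same libraries are not independent, and the share over all genes was not counted. No excess in the WNT genes is therefore read from this number. Wnt6 was at 9.51 CPM in PAMH F3 3, with the nearest library at 7.05 CPM. Rspo1 was at 10.3 CPM in PAMH F3 4, and the nearest library was at 20.1 CPM. Lgr4 was at 154 CPM in PAMH F3 1 and at most at 130 CPM in the others. Sfrp1, in the same library, was at 76.3 CPM, compared with 56.8 CPM in the nearest. Dvl1 was at 72.4 CPM in PAMH F3 3, above 55.4 CPM in the nearest library. Lef1 was at 1.67 CPM in PAMH F3 3, below 2.48 CPM in the nearest library. PAMH F3 3 was the library that stood apart in 3 of the 6 genes, PAMH F3 1 in 2 and PAMH F3 4 in 1.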

How the results depend on the processing

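With 3 against 4 libraries and 3 residual degrees of freedom, the edgeR test called no gene of any kind. Against the 0 genes at an adjusted p of at most 0.05, DESeq2 called 101 with the same surrogate variables and 6 without, edgeR called 8 without a filter on low counts, and leaving out 1 library gave 0 to 37 (37 without CNTR 1, 31 without PAMH F3 1). The 7 WNT genes with an unadjusted p under 0.05 became 3 in edgeR without surrogate variables and 3 in DESeq2 without them. They became 3 in edgeR with the GC and length correction, which also had no surrogate variables. Of all genes, 730 of 18779, 842 of 33785 and 826 of 18773 had such a p in these fits, beside 730 higher and 702 lower in the main fit. When 1 library was left out, 3 to 12 WNT genes had one. There were 12 without CNTR 1, beside 3256 of all 19094 genes, and 3 without PAMH F3 2, beside 795 of 18591. The number thus moved along with that of all genes. The number of WNT genes stayed within 1.5 times of 7 with 1 or 3 surrogate variables, DESeq2 with the same surrogate variables, median-ratio size factors, robust fitting and both other filters. Porcn kept its sign in all 18 alternatives. It passed the threshold in DESeq2 with the same surrogate variables (-0.68) and without CNTR 1, and its log2 fold change ran from -0.96 to -0.59 over the 7 fits that left out 1 library. The median of the 48 genes ran from -0.0662 (without CNTR 3) to 0.0011 over these fits. The number of WNT genes whose groups did not overlap was 1 with either scaling and 2 to 6 when 1 library was left out, the most without CNTR 1. Smaller groups separate more easily in any gene, and the share of all genes in these settings is not given here. The cause of these changes was not tested.

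The deviations of same-numbered CNTR and PAMH F3 libraries had correlations of 0.12, 0.13 and -0.33. Whether such libraries share more than a number was not tested. With the replicate block, which left no room for surrogate variables, 2 WNT genes had an unadjusted p under 0.05, beside 432 of all 18626 genes. The fit with the block also left out the PAMH F3 library whose number no CNTR library shares. Without block or surrogate variables, and with all libraries, 3 WNT genes had such a p, beside 730 of 18779. The log2 fold change of Porcn was -0.88 with the block, with an adjusted edgeR p of 0.9999, compared with -0.74 without it. The median of the WNT genes was 0.0047 with the block. The part of the left-out library in these changes, apart from that of the block, was not tested.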
